A study of Mus musculus with 14 samples.

Results

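The tricarboxylic acid (TCA) cycle was followed in mouse kidney through 9 of its enzyme transcripts: citrate synthase (Cs), isocitrate dehydrogenases (Idh2, Idh3a and Idh3b), 2-oxoglutarate dehydrogenase (Ogdh), the alpha subunit of succinyl-CoA ligase (Suclg1), the flavoprotein subunit of succinate dehydrogenase (Sdha), fumarase (Fh1) and mitochondrial malate dehydrogenase (Mdh2). They were chosen by gene symbol as enzymes of the cycle, matched through the Ensembl identifiers, and are 9 of the 47729 genes counted in each library. All 9 passed the filter on low counts. The 14 RNA sequencing libraries of whole kidney fall by their labels into 4 groups: 4 of genotype SMOC2 Transgenic after 7 days of unilateral ureteral obstruction (SMOC2 UUO), 4 of wild type after the same obstruction (WT UUO), 3 of genotype SMOC2 Transgenic without treatment (SMOC2 normal) and 3 of wild type without treatment (WT normal). UUO closes the ureter of a single kidney and is a widely used model of kidney fibrosis. The labels give neither the promoter of the transgene nor the age, strain or sex of the animals beside genotype and treatment. A treatment text repeated for every sample concerns folic acid injection in male Balb/c mice and conflicts with the genotype, treatment and design labels, which set the groups here. Whether libraries of a group stem from separate animals is not stated, so the p-values cover variation among libraries that could be technical in part.

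The cycle oxidises acetyl-CoA from pyruvate, fatty acids and amino acids in the mitochondrial matrix. It hands the electrons to the respiratory chain as NADH and as succinate, and it supplies carbon for glucose and amino acid synthesis. The proximal tubule of the kidney, which reabsorbs most filtered solutes, is rich in mitochondria and burns mainly fatty acids and organic acids, so cycle enzymes are abundant in normal kidney tissue.

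Promoter windows, each spanning 250 bases before to 50 after a RefSeq transcription start on build GRCm38.p6 (mm10), were available for 8 of the 9 genes, all but Idh3a, in 13 windows, of which Ogdh had 6. Both strands were searched for short motifs of factors known to act on mitochondrial genes, and motifs were allowed to overlap. The longer estrogen-related receptor (ERR) site TCAAGGTCA was in none of the 8 genes and in 0.466% of all 27025 genes with a promoter. Its core AAGGTCA was in Ogdh and in 5.38% of all genes, the NRF1 core CGCATGCG in Ogdh and in 2.07%, and the ETS core CCGGAAG in Idh3b and in 9.93%. With its 6 windows, Ogdh had more sequence searched than the other members, so shares per gene are not a like comparison for it. Per window, the ERR core was in 4.72% and the NRF1 core in 1.87% of all 32851 windows. The YY1 core AAGATGG was in none of the 8 and in 7.28% of all genes. The common SP1 core GGGCGG was in 5 of the 8 (Cs, Idh2, Ogdh, Fh1 and Mdh2) and in 38.2% of all genes, and the CCAAT box in 6 of the 8 (Cs, Idh2, Idh3b, Ogdh, Sdha and Fh1) and in 41.1%. These letters are a description of the windows and show neither binding nor its absence. The 5 windows below are shown because they hold the less common motifs (Ogdh and Idh3b) or belong to the enzymes with the smallest (Cs) and the largest (Suclg1) log2 fall after UUO. They are written 5′ to 3′ on the strand of the gene, with every motif match on either strand in capitals:
Ogdh, chr11:6292308-6292607, plus strand, NRF1 core: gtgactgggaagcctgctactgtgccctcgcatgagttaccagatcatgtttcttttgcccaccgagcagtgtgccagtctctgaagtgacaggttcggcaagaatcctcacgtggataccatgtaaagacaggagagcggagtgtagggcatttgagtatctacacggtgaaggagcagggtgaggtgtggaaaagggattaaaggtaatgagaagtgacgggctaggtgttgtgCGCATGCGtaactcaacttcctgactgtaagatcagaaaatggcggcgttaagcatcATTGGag
Ogdh, chr11:6291920-6292219, plus strand, ERR core: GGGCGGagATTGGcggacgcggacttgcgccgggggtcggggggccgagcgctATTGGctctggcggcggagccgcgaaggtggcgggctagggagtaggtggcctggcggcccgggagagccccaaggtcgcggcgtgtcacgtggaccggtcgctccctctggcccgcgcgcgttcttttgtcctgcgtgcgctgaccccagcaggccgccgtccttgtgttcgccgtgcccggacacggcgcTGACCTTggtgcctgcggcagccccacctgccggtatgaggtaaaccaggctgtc
Idh3b, chr2:130284402-130284701, minus strand, ETS core: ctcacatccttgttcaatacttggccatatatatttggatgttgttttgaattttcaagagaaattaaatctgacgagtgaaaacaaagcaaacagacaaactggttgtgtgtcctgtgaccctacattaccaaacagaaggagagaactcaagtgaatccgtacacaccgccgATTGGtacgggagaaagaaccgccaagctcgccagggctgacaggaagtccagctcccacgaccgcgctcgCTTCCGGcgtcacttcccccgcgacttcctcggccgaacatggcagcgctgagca
Cs, chr10:128337477-128337776, plus strand: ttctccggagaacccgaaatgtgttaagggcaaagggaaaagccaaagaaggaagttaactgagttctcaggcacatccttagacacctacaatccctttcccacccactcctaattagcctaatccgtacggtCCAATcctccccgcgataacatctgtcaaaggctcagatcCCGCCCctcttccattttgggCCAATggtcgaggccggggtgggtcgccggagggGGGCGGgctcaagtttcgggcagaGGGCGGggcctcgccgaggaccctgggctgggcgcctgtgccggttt
Suclg1, chr6:73248255-73248554, plus strand, no motif match: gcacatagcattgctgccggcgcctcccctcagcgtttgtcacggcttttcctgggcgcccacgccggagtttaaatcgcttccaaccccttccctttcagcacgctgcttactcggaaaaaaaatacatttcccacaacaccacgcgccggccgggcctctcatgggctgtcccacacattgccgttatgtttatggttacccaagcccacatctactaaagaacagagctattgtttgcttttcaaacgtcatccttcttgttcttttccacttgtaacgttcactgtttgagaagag

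Libraries held 19483994 to 30033405 counts, and the 9 transcripts had between 1985 and 25942 counts each in a library. Levels are given in CPM (counts scaled to a common library size) on library sizes scaled by trimmed mean of M-values (TMM) factors. The first principal component over all libraries held 79.9% of the variance over genes. A gene is said to have risen or fallen at an edgeR quasi-likelihood adjusted p under 0.05. Under that rule 62.8% of 17926 genes changed with UUO under the SMOC2 label (5817 rose, 32.5%, and 5447 fell) and 61.1% in WT (5603 rose, 31.3%, and 5347 fell). Without composition factors, on library totals alone, the split was 10382 higher to 2804 lower under the SMOC2 label and 10052 to 2716 in WT, and the median gene lay at 0.536 under the SMOC2 label and 0.515 in WT on the log2 scale instead of 0.0365 and 0.0455. Smoc2, the gene named for the transgene, had 96.1 ± 18.5 CPM in SMOC2 UUO and 147 ± 11.4 CPM in WT UUO libraries (SD, n = 4 each). It had 21.8 ± 9.66 CPM in SMOC2 normal and 25.2 ± 16.1 CPM in WT normal libraries (SD, n = 3 each). Its counts were therefore not higher in the libraries labelled transgenic, and the genotype is given below only as the label states it.

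All 9 cycle enzymes fell with UUO under both genotype labels. Gene coordinates below are on mm10 (GENCODE M21). In each of the 2 comparisons every UUO library lay below every normal library of its own label for all 9 transcripts. Across all genes tested, the share that fell was 30.4% under the SMOC2 label and 29.8% in WT, and the share with every UUO library below every normal one was 30.1% under the SMOC2 label and 29.5% in WT. The median log2 fold change of the 9 was -1.51 under the SMOC2 label and -1.42 in WT, beside medians of all genes of 0.0365 under the SMOC2 label and 0.0455 in WT. Summed over the 9, transcripts came to 1797 to 1989 CPM in SMOC2 UUO and 1595 to 2141 CPM in WT UUO libraries, against 4774 to 5483 CPM in SMOC2 normal and 4889 to 4994 CPM in WT normal libraries. In whole tissue, fewer cells of a type and less RNA per cell cannot be told apart.

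**Figure D1:**
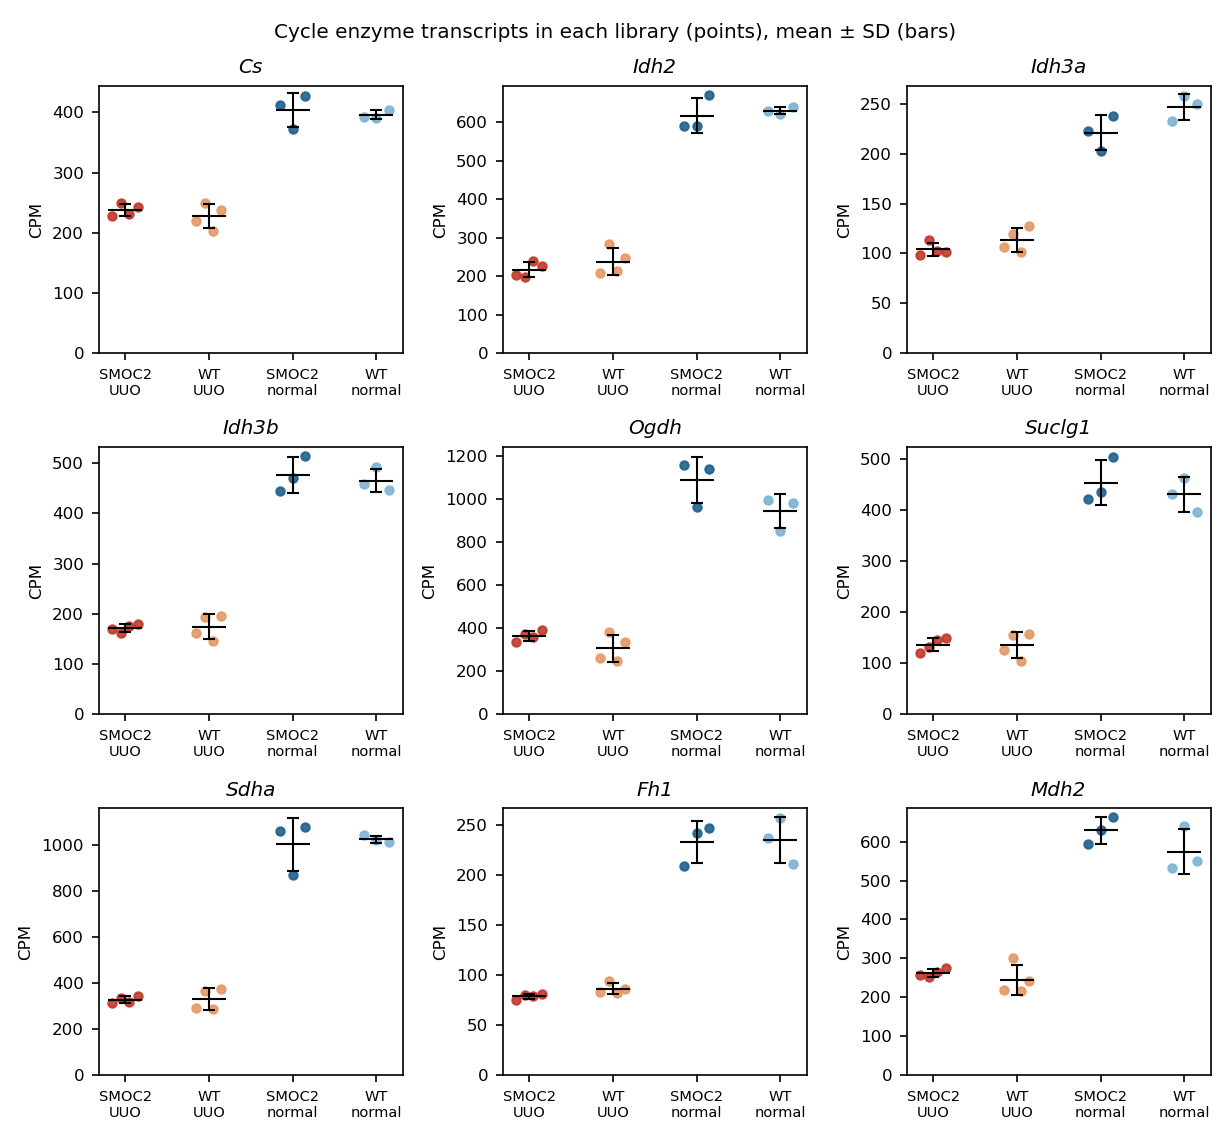
Levels of the 9 cycle enzyme transcripts (CPM, axes from 0) in each library, with groups from left to right SMOC2 UUO (n = 4), WT UUO (n = 4), SMOC2 normal (n = 3) and WT normal (n = 3). Points are libraries and black bars the mean ± SD. In every panel the 8 UUO libraries lie below the 6 normal libraries, and Cs, with the smallest log2 fold change, has 204 to 249 CPM in UUO and 373 to 428 CPM in normal libraries.

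At the entry of the cycle, citrate synthase joins acetyl-CoA to oxaloacetate (ENSMUSG00000005683, chromosome 10 from 128337734 to 128362479, plus strand). It had 227, 249, 231 and 242 CPM in the SMOC2 UUO libraries and 219, 249, 204 and 238 CPM in the WT UUO libraries. Against these stood 412, 373 and 428 CPM in the SMOC2 normal libraries and 393, 390 and 404 CPM in the WT normal libraries. On the log2 scale this was the smallest change of the 9, and the highest UUO library lay below the lowest normal library. UUO over normal gave a log2 fold change of -0.77 (95% interval -0.95 to -0.59, edgeR adjusted p = 2.59e-06) under the SMOC2 label and -0.80 (-0.98 to -0.62, edgeR adjusted p = 1.97e-06) in WT. Cs shares 91.9% of 1522 transcript bases with its copy Csl and 92.1% of 469 bases with a processed pseudogene not analysed here, and no stretch of at least 200 bases at 90% identity was found for the other members. Csl itself averaged 0.0747 CPM in SMOC2 UUO, 0.0441 in WT UUO, 0.0567 in SMOC2 normal and 0.175 in WT normal libraries, so reads lost or gained between the copies are uncertain.

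Isocitrate is oxidised by different enzymes, of which Idh2 encodes the NADP-dependent enzyme of the matrix, which also feeds antioxidant defence with NADPH. Per kilobase of exon it was among the most abundant of the 9 (ENSMUSG00000030541, chromosome 7 from 80094846 to 80115392, minus strand). Its UUO values were 203, 197, 238 and 227 CPM in the SMOC2 UUO libraries and 207, 283, 212 and 246 CPM in the WT UUO libraries. Its normal values were 591, 590 and 671 CPM in the SMOC2 normal libraries and 630, 622 and 639 CPM in the WT normal libraries. The SMOC2 UUO and WT UUO libraries overlapped, and so did both normal groups. The log2 fold change, UUO over normal, was -1.51 (95% interval -1.76 to -1.27, edgeR adjusted p = 8.03e-08) under the SMOC2 label and -1.41 (-1.65 to -1.17, edgeR adjusted p = 1.65e-07) in WT. Idh3a encodes the catalytic subunit of the NAD-dependent enzyme (ENSMUSG00000032279, chromosome 9 from 54586334 to 54604661, plus strand). Libraries after UUO held 98.8, 113, 103 and 101 CPM in the SMOC2 UUO libraries and 107, 120, 101 and 127 CPM in the WT UUO libraries. Libraries without treatment held 223, 203 and 238 CPM in the SMOC2 normal libraries and 233, 258 and 250 CPM in the WT normal libraries. After Cs, this was the smallest fall among the 9 on the log2 scale. Its log2 fold change was -1.09 (95% interval -1.29 to -0.89, edgeR adjusted p = 2.33e-07) under the SMOC2 label and -1.12 (-1.32 to -0.92, edgeR adjusted p = 2.14e-07) in WT. Idh3b encodes a regulatory subunit of the same NAD-dependent enzyme (ENSMUSG00000027406, chromosome 2 from 130279309 to 130284547, minus strand). After UUO it was at 169, 161, 176 and 180 CPM in the SMOC2 UUO libraries and 161, 194, 145 and 195 CPM in the WT UUO libraries. Without treatment it was at 444, 471 and 514 CPM in the SMOC2 normal libraries and 459, 492 and 446 CPM in the WT normal libraries. The separation of UUO from normal libraries was wider than for its partner Idh3a. On the log2 scale UUO minus normal was -1.47 (95% interval -1.70 to -1.25, edgeR adjusted p = 5.86e-08) under the SMOC2 label and -1.42 (-1.65 to -1.20, edgeR adjusted p = 9.16e-08) in WT. Exons of Idh3b overlap Nop56 on the opposite strand by 5 bases, which is 0.146% of its exon length, and no other member overlaps the exons of another gene.

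Ogdh encodes the E1 component of the 2-oxoglutarate dehydrogenase complex, a rate-controlling step of the cycle (ENSMUSG00000020456, chromosome 11 from 6291633 to 6356642, plus strand). UUO libraries had 335, 373, 356 and 391.9 CPM in the SMOC2 UUO libraries and 260, 381, 245 and 336 CPM in the WT UUO libraries. Normal libraries had 1158, 964 and 1142 CPM in the SMOC2 normal libraries and 995, 852 and 982 CPM in the WT normal libraries. The 4 SMOC2 UUO libraries were grouped closely, while the WT UUO libraries spread more widely. Ogdh had a log2 fold change of -1.58 (95% interval -1.89 to -1.27, edgeR adjusted p = 4.12e-07) under the SMOC2 label and -1.63 (-1.93 to -1.32, edgeR adjusted p = 3.72e-07) in WT. Suclg1 encodes the alpha subunit shared by both succinyl-CoA ligases, which make GTP or ATP (ENSMUSG00000052738, chromosome 6 from 73248382 to 73276911, plus strand). It stood after UUO at 120, 131, 146 and 148 CPM in the SMOC2 UUO libraries and 125, 155, 104 and 157 CPM in the WT UUO libraries. It stood in normal kidney at 420, 435 and 503 CPM in the SMOC2 normal libraries and 431, 463 and 396 CPM in the WT normal libraries. On the log2 scale this was the largest fall of the 9 under both labels. Its UUO to normal log2 fold change was -1.74 (95% interval -2.03 to -1.44, edgeR adjusted p = 1.26e-07) under the SMOC2 label and -1.67 (-1.96 to -1.38, edgeR adjusted p = 1.98e-07) in WT.

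Sdha encodes the subunit of succinate dehydrogenase, also complex II of the respiratory chain, that oxidises succinate to fumarate (ENSMUSG00000021577, chromosome 13 from 74322254 to 74350280, minus strand). Levels after UUO were 312, 334, 315 and 343 CPM in the SMOC2 UUO libraries and 289, 366, 286 and 374 CPM in the WT UUO libraries. Levels without treatment were 1059, 867 and 1076 CPM in the SMOC2 normal libraries and 1040, 1020 and 1010.5 CPM in the WT normal libraries. The WT normal libraries lay close together, and all UUO libraries of both labels lay far below them. For Sdha the log2 fold change was -1.62 (95% interval -1.87 to -1.37, edgeR adjusted p = 5.69e-08) under the SMOC2 label and -1.64 (-1.89 to -1.39, edgeR adjusted p = 6.42e-08) in WT. Fh1 encodes fumarase, which hydrates fumarate to malate (ENSMUSG00000026526, chromosome 1 from 175600374 to 175625635, minus strand). Fumarase had 75.0, 79.4, 79.0 and 80.6 CPM in the SMOC2 UUO libraries and 83.3, 93.7, 82.0 and 85.7 CPM in the WT UUO libraries. In normal kidney it had 209, 242 and 247 CPM in the SMOC2 normal libraries and 237, 256 and 211 CPM in the WT normal libraries. The 4 SMOC2 UUO libraries all lay below the 4 WT UUO libraries, and the normal groups overlapped. Fumarase had a log2 fold change of -1.57 (95% interval -1.75 to -1.38, edgeR adjusted p = 1.03e-08) under the SMOC2 label and -1.45 (-1.63 to -1.26, edgeR adjusted p = 1.78e-08) in WT. Mdh2 encodes the malate dehydrogenase of the matrix, which restores oxaloacetate and also serves the malate-aspartate shuttle (ENSMUSG00000019179, chromosome 5 from 135778480 to 135790398, plus strand). The UUO values were 258, 251, 265 and 275 CPM in the SMOC2 UUO libraries and 220, 301, 215 and 241 CPM in the WT UUO libraries. The normal values were 594, 629 and 664 CPM in the SMOC2 normal libraries and 533, 640 and 550 CPM in the WT normal libraries. UUO library 2 of WT stood above the other 3 of its group. The fitted log2 fold change was -1.26 (95% interval -1.51 to -1.02, edgeR adjusted p = 4.11e-07) under the SMOC2 label and -1.23 (-1.48 to -0.99, edgeR adjusted p = 5.87e-07) in WT.

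**Figure D2:**
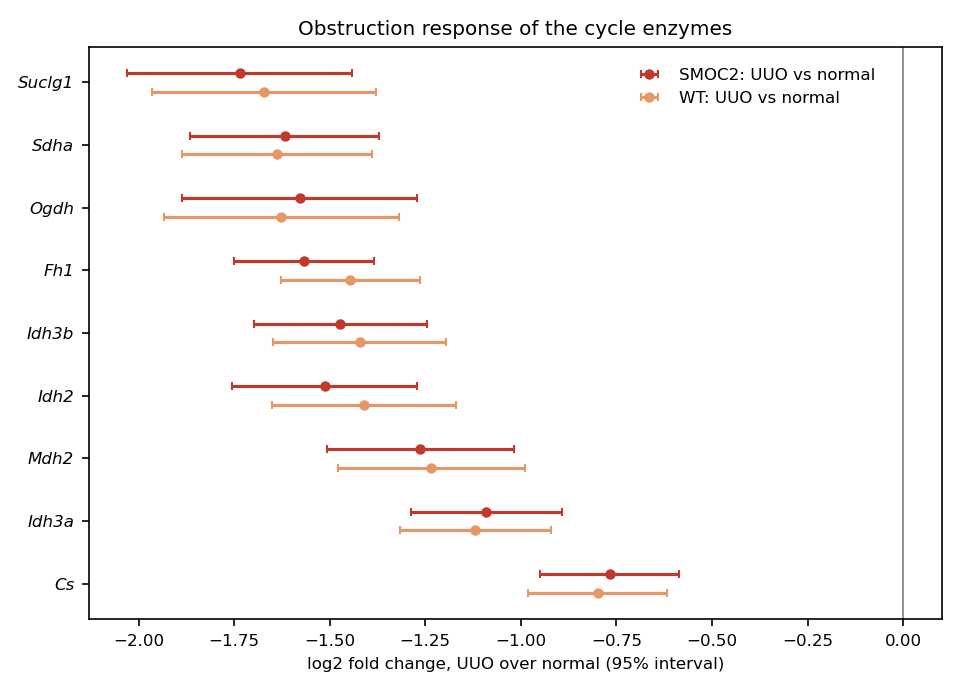
Log2 fold change of UUO over normal for each cycle enzyme, with 95% intervals from edgeR, for the SMOC2 label (upper of each pair, red) and WT (lower, orange). Genes are ordered by the WT value, and all intervals lie left of 0, from Suclg1 at -1.74 and -1.67 to Cs at -0.77 and -0.80.

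The size of the fall differed among the enzymes in much the same order under both labels. Suclg1, Sdha and Ogdh were at the top in both, Mdh2, Idh3a and Cs at the bottom in both, and Fh1, Idh3b and Idh2 lay between them. Intervals of neighbours in this order overlapped throughout, but the interval of Cs lay apart from those of Suclg1, Sdha, Ogdh, Fh1, Idh3b, Idh2 and Mdh2 under both labels. Among the fold changes of all 17926 genes, the 9 lay at the 6.19 to 18.9 percentiles under the SMOC2 label and at the 6.01 to 17.0 percentiles in WT.

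Levels were compared between genes only as CPM per kilobase of exon, with all annotated exons of a gene merged. This gave 5779 bases for Cs and 4617 for Suclg1. The lengths of the transcripts present were not measured, so the order of genes within a group depends on these merged lengths. In normal kidney Sdha and Idh2 were highest and overlapped, with 242.5 ± 28.1 and 238 ± 17.9 CPM per kilobase in SMOC2 normal and 248 ± 3.60 and 243.5 ± 3.15 in WT normal libraries (SD, n = 3 each). Ogdh and Mdh2 followed and overlapped each other, then Idh3b and Suclg1, each apart from its neighbours. Cs and Fh1 overlapped near 70 CPM per kilobase, and Idh3a was lowest with 43.7 ± 3.51 in SMOC2 normal and 48.7 ± 2.54 in WT normal libraries. After UUO the order was Idh2, Sdha, Mdh2, Ogdh, Idh3b, Cs, Suclg1, Fh1 and Idh3a under both labels. The first 4 of these formed a chain in which each overlapped the next. Cs, at 41.1 ± 1.72 in SMOC2 UUO and 39.4 ± 3.48 CPM per kilobase in WT UUO (SD, n = 4 each), lay above Suclg1, at 29.45 ± 2.885 in SMOC2 UUO and 29.3 ± 5.47 in WT UUO, with no overlap of their libraries. In normal libraries Suclg1 lay above Cs without overlap, at 98.1 ± 9.58 against 69.9 ± 4.90 in SMOC2 normal and at 93.2 ± 7.27 against 68.5 ± 1.29 CPM per kilobase in WT normal libraries.

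Between genotype labels none of the 9 passed the test, in UUO kidney, in normal kidney or in the interaction of genotype with UUO. Across all genes, 0.831% passed in SMOC2 UUO against WT UUO, 0.0279% in SMOC2 normal against WT normal, and 0 in the interaction, where edgeR gave 1154 genes at an unadjusted p under 0.05, DESeq2 called 25 and limma-voom 0. In SMOC2 UUO against WT UUO the 9 ran from -0.13 to 0.25 on the log2 scale, with Ogdh at 0.25 (95% interval -0.03 to 0.54, edgeR adjusted p = 0.391) and Fh1 at -0.13 (-0.30 to 0.04, edgeR adjusted p = 0.452). The non-overlap of Fh1 noted above is a pattern that 4.43% of all genes showed in that direction. In SMOC2 normal against WT normal the 9 ran from -0.16 for Idh3a (-0.37 to 0.05, edgeR adjusted p = 0.524) to 0.21 for Ogdh (-0.12 to 0.53, edgeR adjusted p = 0.600). The difference in UUO response between labels was between -0.12 for Fh1 (-0.38 to 0.14) and 0.05 for Ogdh (-0.39 to 0.48), with edgeR adjusted p of 0.886 and 0.977. Intervals of the 9 over the 3 contrasts reached from -0.48 to 0.54 on the log2 scale, so the test does not show that the labels act alike.

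Because the fold changes differed between subunits and neighbouring steps, 14 ratios of such pairs were formed within each library from CPM per kilobase. The pairs were chosen by enzyme role after the fold changes had been seen. A ratio within a library does not depend on scaling factors. Its level depends on the merged exon lengths, which cancel in the log2 difference between UUO and normal. UUO was compared with normal by exact 2-sided permutation within genotype label (1225 relabellings, smallest possible p = 0.000816), adjusted over the 14. Of the 14 ratios, 11 had an adjusted p under 0.05, 5 higher and 6 lower in UUO. Because the pairs were chosen with the same libraries in view, these p-values are not independent support for a shift between the genes of a pair. The share of other gene pairs that would pass was not measured. Of all genes tested, 62.8% changed with UUO under the SMOC2 label and 61.1% in WT.

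The enzyme of Mdh2 restores the oxaloacetate that citrate synthase uses. Cs to Mdh2 was 0.539 to 0.611 in SMOC2 UUO and 0.510 to 0.615 in WT UUO, against 0.365 to 0.427 in SMOC2 normal and 0.376 to 0.454 in WT normal libraries, a rise of 0.47 on the log2 scale (exact permutation adjusted p = 0.00163).

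Among subunits of a single enzyme, Idh3a rose relative to Idh3b by 0.34 and relative to Idh3g, another regulatory subunit, by 0.24 on the log2 scale (exact permutation adjusted p = 0.00163 for each). Idh3a to Idh3b was 0.379 to 0.474 in SMOC2 UUO and 0.417 to 0.469 in WT UUO, against 0.290 to 0.339 in SMOC2 normal and 0.342 to 0.378 in WT normal libraries. Idh3b to Idh3g fell by 0.11 (exact permutation adjusted p = 0.0468), and this call was lost on leaving out any of 10 of the 14 libraries. Suclg1 fell relative to its GTP-forming partner Suclg2 by 0.52 (exact permutation adjusted p = 0.00163) and relative to the ATP-forming partner Sucla2 by 0.24 (exact permutation adjusted p = 0.008). Suclg1 to Suclg2 was 1.11 to 1.23 in SMOC2 UUO and 0.989 to 1.30 in WT UUO, against 1.51 to 1.86 in SMOC2 normal and 1.43 to 1.74 in WT normal libraries. Sdha to Sdhb (0.18, exact permutation adjusted p = 0.073), Ogdh to Dlst (-0.17, 0.0705) and Sdha to Fh1 (-0.13, 0.155) did not pass.

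Against the cytosolic forms of the same activities, the matrix enzymes moved in different directions. Mdh2 to Mdh1 was 0.488 to 0.583 in SMOC2 UUO and 0.335 to 0.516 in WT UUO, against 0.326 to 0.385 in SMOC2 normal and 0.274 to 0.290 in WT normal libraries, a rise of 0.63 on the log2 scale (exact permutation adjusted p = 0.00163). Idh2 to Idh1 was 0.534 to 0.836 in SMOC2 UUO and 0.631 to 1.06 in WT UUO, against 1.07 to 1.22 in SMOC2 normal and 0.956 to 1.02 in WT normal libraries, a fall of 0.61 (exact permutation adjusted p = 0.00635). In WT UUO, library 4 lay below the other 3 in Mdh2 to Mdh1, and library 2 lay above the other 3 in Idh2 to Idh1, above all WT normal libraries as well. Idh2 also fell relative to Idh3a, by 0.36 (exact permutation adjusted p = 0.00286), and Fh1 relative to Mdh2 by 0.25 (exact permutation adjusted p = 0.00163).

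**Figure D3:**
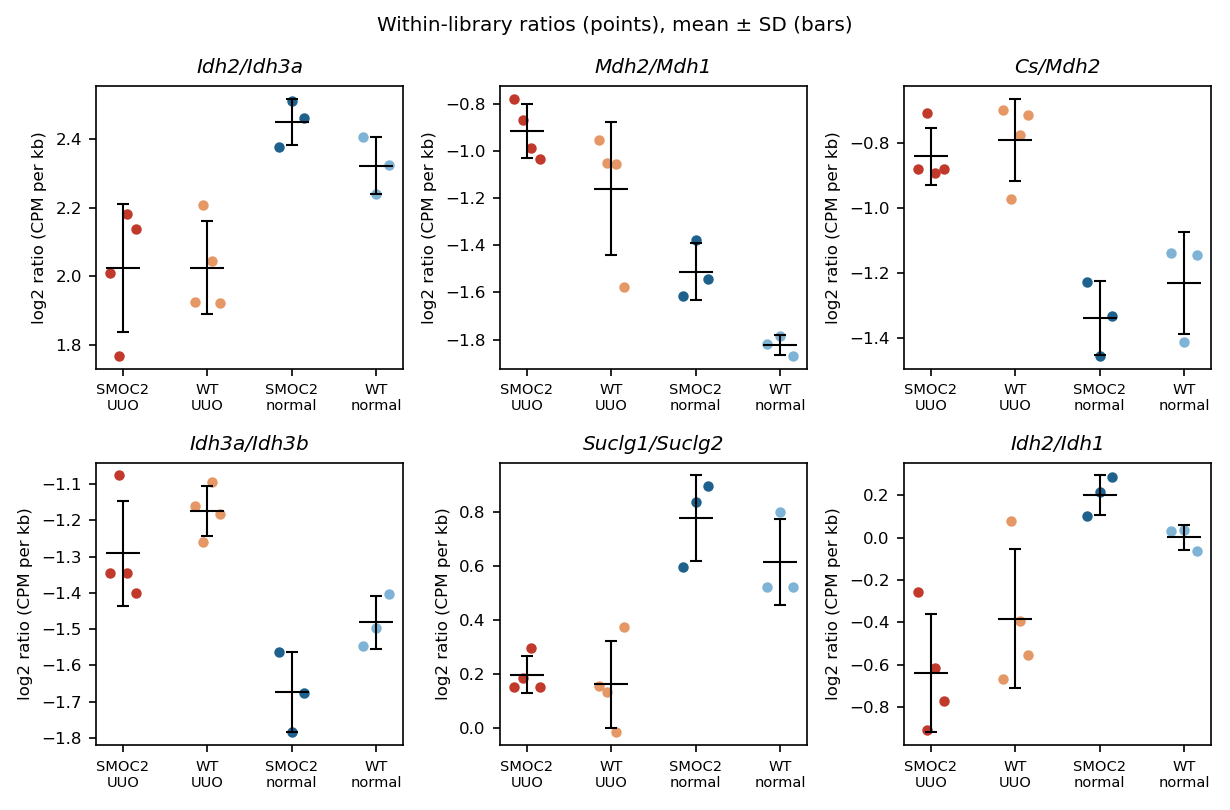
Log2 of 6 within-library ratios of CPM per kilobase, by group (SMOC2 UUO, WT UUO, SMOC2 normal, WT normal). Points are libraries and black bars the mean ± SD, the axes do not start at 0. Cs/Mdh2 and Idh3a/Idh3b are higher in all UUO libraries than in any normal library of the same label, Suclg1/Suclg2 and Idh2/Idh3a are lower in all of them, and 1 WT UUO library lies apart in Mdh2/Mdh1 at -1.58.

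Within groups, some libraries were highest or lowest for several of the 9 enzymes, which was not tested. In WT UUO, library 2 was highest for 5 of the 9 and library 4 for the other 4, while library 3 was lowest for 8. In SMOC2 UUO, library 4 was highest for 6 and library 1 lowest for 6, while library 2 was highest for 2 and lowest for 3. In SMOC2 normal, library 4 was highest for 8. In WT normal no library led throughout, with libraries 1, 2 and 3 highest for 2, 5 and 2 and lowest for 2, 3 and 4 of the 9. The summed level of 9 proximal tubule markers (Lrp2, Cubn and 7 others) in WT UUO was 3948 and 4588 CPM in libraries 2 and 4, and 1800 and 1831 CPM in libraries 1 and 3. The cycle enzymes came to 2141 and 2000 CPM in libraries 2 and 4, and to 1672 and 1595 CPM in libraries 1 and 3, in the same order of pairs. Fibroblast markers (5 genes, among them Col1a1 and Pdgfrb) went the other way, with 2761 and 2470 CPM in libraries 2 and 4 and 4445 and 3997 CPM in libraries 1 and 3. In no group did the library with the highest proximal tubule sum have the highest cycle enzyme sum. The library with the lowest proximal tubule sum had the lowest cycle enzyme sum in every group except WT UUO.

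Over all groups the proximal tubule sum was 3167 to 4299 CPM in SMOC2 UUO and 1800 to 4588 CPM in WT UUO, against 23061 to 27580 CPM in SMOC2 normal and 22097 to 24813 CPM in WT normal libraries. All 9 markers fell under both labels, with median log2 fold changes of -2.45 under the SMOC2 label and -2.58 in WT, further than the -1.51 and -1.42 of the cycle enzymes. The cycle enzyme sum was 0.444 to 0.568 of the proximal tubule sum in SMOC2 UUO and 0.436 to 0.929 in WT UUO, against 0.185 to 0.207 in SMOC2 normal and 0.200 to 0.221 in WT normal libraries. Fibroblast markers summed to 3406 to 4604 CPM in SMOC2 UUO and 2470 to 4445 CPM in WT UUO, against 132 to 277 CPM in SMOC2 normal and 179 to 457 CPM in WT normal libraries, and all 5 rose. Macrophage markers summed to 686 to 888 CPM in SMOC2 UUO and 748 to 836 CPM in WT UUO, against 177 to 240 CPM in SMOC2 normal and 175 to 212.5 CPM in WT normal libraries. Of these 5 markers, 4 rose under the SMOC2 label and 5 in WT. Their log2 fold changes ran from 0.14 to 4.18 under the SMOC2 label and from 0.42 to 3.89 in WT. Of the thick ascending limb markers 3 of 4 fell under each label, with Cldn16 at 0.07 under the SMOC2 label and -0.12 in WT, and all 3 markers of the distal convoluted tubule and all 4 of the collecting duct fell. The part of these shifts in the fall of the cycle enzymes was not tested.

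**Figure D4:**
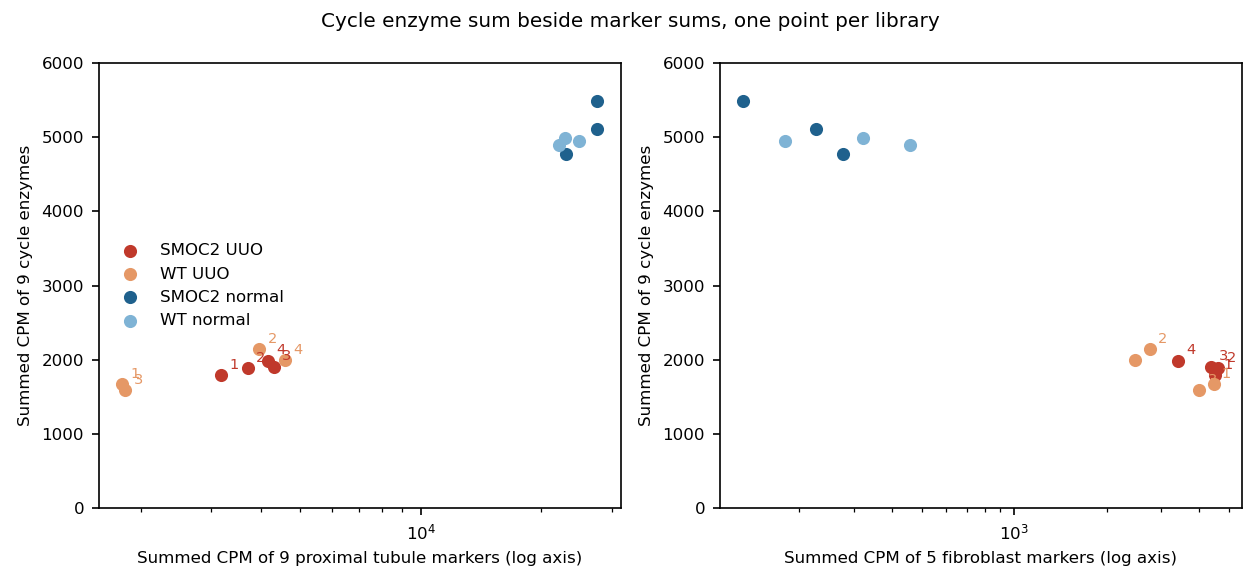
Summed CPM of the 9 cycle enzymes (vertical, from 0) against the summed CPM of 9 proximal tubule markers (left, log axis) and of 5 fibroblast markers (right, log axis), with 1 point per library and replicate numbers beside most UUO libraries. The UUO libraries lie at 1595 to 2141 CPM of cycle enzymes, the normal libraries at 4774 to 5483 CPM. WT UUO libraries 1 and 3 have the lowest proximal tubule sums, 1800 and 1831 CPM.

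All 9 other cycle subunits tested, among them Idh3g, Dlst, Dld, Suclg2, Sucla2, Sdhb, Sdhc and Sdhd, fell under both labels, with medians of -1.50 under the SMOC2 label and -1.44 in WT on the log2 scale. The iron-sulphur subunit Sdhb fell by 1.90 under the SMOC2 label and by 1.71 in WT (edgeR adjusted p = 3.25e-08 and 7.88e-08). The smallest falls were Suclg2 at -1.16 and -1.23 and the membrane anchor Sdhd at -1.32 and -1.19. Of the genes for succinate dehydrogenase assembly, Sdhaf1, Sdhaf3 and Sdhaf4 fell under both labels and Sdhaf2 in WT, with list medians of -0.57 under the SMOC2 label and -0.69 in WT. On library totals none of the 4 fell and 1 rose under each label. The exons of Sdhaf1 overlap an opposite-strand gene over 69.6% of their length, which makes its counts uncertain.

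Pyruvate enters the cycle through its mitochondrial carrier and the pyruvate dehydrogenase complex, or through pyruvate carboxylase. Of 12 genes of carrier, complex and its kinases and phosphatases, 9 fell and 1 rose under each label. Pdk2, a kinase that switches the complex off, fell by 2.24 under the SMOC2 label and by 2.14 in WT, and the complex subunits Dlat by 1.39 and 1.37, Pdhb by 1.35 and 1.21 and Pdha1 by 1.15 and 1.35. The gene that rose, chosen here after its values were seen, was the activating phosphatase Pdp1, by 0.94 under the SMOC2 label and 0.66 in WT (edgeR adjusted p = 0.000112 and 0.00171). Pdk1 and Pdk4 did not pass in either.

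Of 12 genes for refilling and draining the cycle, 9 fell and 2 rose under each label. On library totals 8 fell and 3 rose under the SMOC2 label, and 9 fell and 3 rose in WT. Among the 4 with the smallest p in WT, the propionyl-CoA carboxylase subunits Pcca and Pccb fell by 1.78 and 1.74 under the SMOC2 label and by 1.69 and 1.74 in WT, the aspartate aminotransferase Got2 by 1.15 and 1.35, and pyruvate carboxylase Pcx by 2.52 and 2.67. The following were chosen after their values were seen. Pck1, the cytosolic enzyme of gluconeogenesis from oxaloacetate, averaged 368 CPM in SMOC2 UUO and 212 CPM in WT UUO, against 4175 CPM in SMOC2 normal and 4381 CPM in WT normal libraries. Its mitochondrial counterpart Pck2 rose, to 39.4 CPM in SMOC2 UUO and 33.3 CPM in WT UUO, against 23.5 CPM in SMOC2 normal and 21.8 CPM in WT normal libraries, as did the mitochondrial malic enzyme Me2 by 0.33 and 0.35 on the log2 scale (edgeR adjusted p = 0.0312 and 0.0218).

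All 5 cytosolic counterparts fell under both labels. Mdh1 fell by 1.85 under the SMOC2 label and by 1.87 in WT, malic enzyme Me1 by 1.58 and 1.67, Aco1 by 1.30 and 1.44, Idh1 by 0.65 and 1.03 and the citrate-splitting Acly by 0.53 and 0.56 on the log2 scale. On library totals, 3 of the 5 under the SMOC2 label and 4 in WT still fell. All 7 tested carriers of cycle intermediates fell, among them the sodium-coupled dicarboxylate transporter Slc13a2 by 1.93 under the SMOC2 label and 2.56 in WT and the mitochondrial dicarboxylate carrier Slc25a10 by 2.25 and 2.32. The oxoglutarate carrier Slc25a11 fell by 1.42 and 1.20 and the aspartate-glutamate carrier Slc25a12 by 1.30 and 1.08. On library totals, 6 of the 7 carriers still fell under each label. Exons shared with a gene on the opposite strand or an overlapping gene make counts uncertain for Slc13a2 (26.2% of its exon length), Pdha1 (16.1%), Slc25a11 (8.92%), Slc25a10 (6.60%), Sirt3 (7.00% with Ric8a and 5.73% with Psmd13) and Pcca (4.63%). The same limit applies to Sdhaf4 (12.7%), Gabpa (6.98%), Ndufs1 (6.05%) and Hif1a (5.60%). Slc13a5 did not pass the filter on low counts.

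Of 5 paralogues and side reactions, 2 fell and 2 rose under the SMOC2 label, and 3 fell and 1 rose in WT. Dhtkd1, the 2-oxoadipate counterpart of Ogdh in lysine breakdown, fell by 2.725 under the SMOC2 label and by 2.73 in WT. D2hgdh fell in WT, by 1.45, and had -0.32 under the SMOC2 label (edgeR adjusted p = 0.308), with an interaction of 1.125 that did not pass (edgeR adjusted p = 0.664). Acod1, which makes itaconate from cis-aconitate in activated macrophages, rose under both labels at very low counts. It averaged 1.03 CPM in SMOC2 UUO and 1.10 CPM in WT UUO, against 0 counts in all 3 SMOC2 normal libraries and 4 counts over the 3 WT normal libraries. Against a floor of 3 counts over the SMOC2 normal group, which covers counting error only, it was at least 18.3-fold higher in SMOC2 UUO. Ogdhl, named after its values were seen, rose under the SMOC2 label by 2.28 (edgeR adjusted p = 0.00696) and had 0.78 in WT (0.265), and the interaction did not pass (0.805). Log2 fold changes of the 5 genes, SMOC2 over WT, ran from -0.12 to 0.28 in UUO and from -3.65 to 0.09 in normal libraries. None of these differences between labels passed.

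Of 12 transcriptional regulators of mitochondrial genes, 10 fell under each label. On library totals 8 fell and 3 rose under the SMOC2 label, and 8 fell and 2 rose in WT. The deacetylase Sirt3 fell by 1.88 under the SMOC2 label and by 1.79 in WT, the tubular factor Hnf4a by 1.68 and 1.98, the estrogen-related receptors Esrra by 1.56 and 1.35 and Esrrb by 2.44 and 2.11. Nrf1, named after its values were seen, rose by 0.23 and 0.22 (edgeR adjusted p = 0.0246 and 0.0273), and Hif1a, named likewise, rose under the SMOC2 label by 0.42 (edgeR adjusted p = 0.0419). Gabpa, also named after its values were seen, fell by 0.27 and 0.34 but changed sign on library totals, to 0.23 under the SMOC2 label and 0.12 in WT.

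All 13 respiratory chain genes fell, with medians of -1.58 under the SMOC2 label and -1.48 in WT, among them Ndufs1 of complex I by 1.79 and 1.73, Uqcrc1 of complex III by 1.77 and 1.64 and Atp5b of ATP synthase by 1.72 and 1.71. All 12 fatty acid oxidation genes fell, with medians of -1.52 and -1.54, and Acadm, the medium-chain acyl-CoA dehydrogenase, fell by 3.52 under the SMOC2 label and by 3.32 in WT. These directions held under each scaling run. The difference between these lists and the cycle enzymes was not tested.

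**Figure D5:**
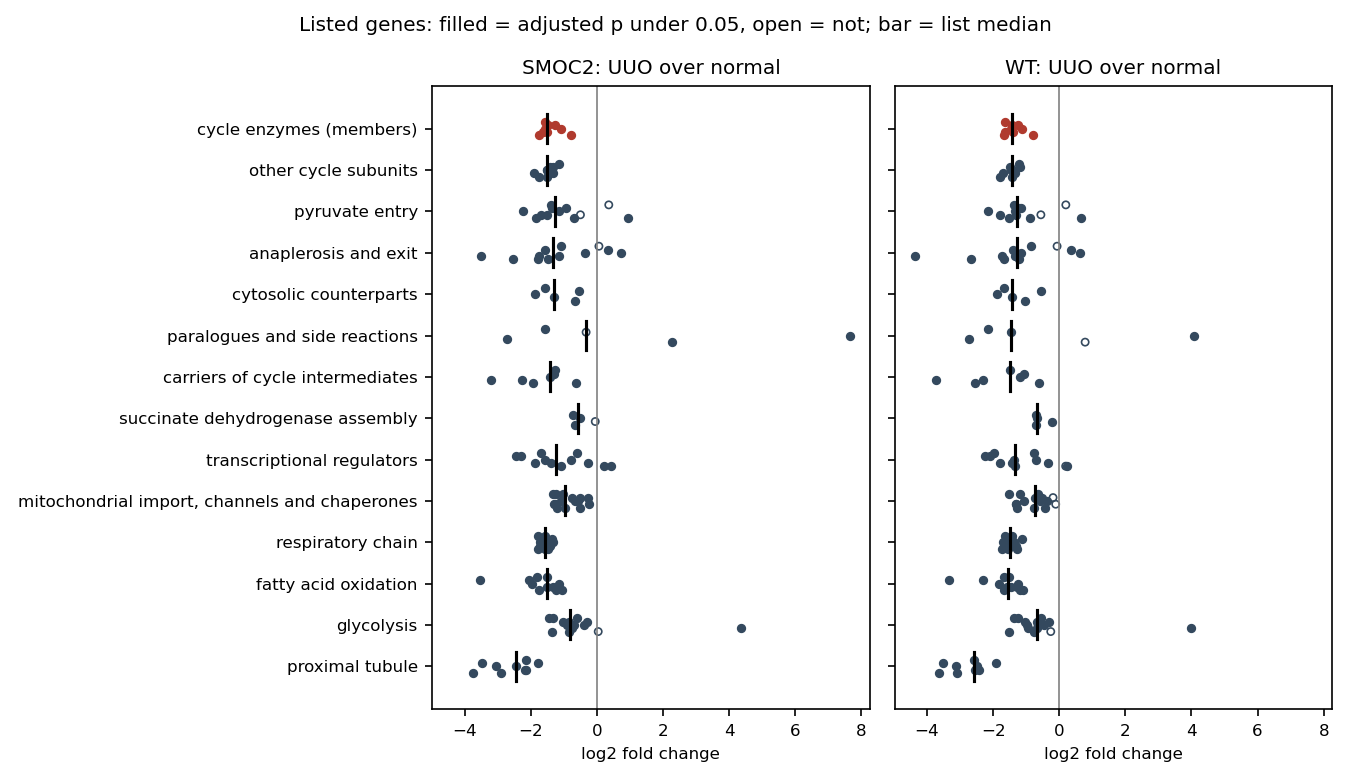
Log2 fold change of UUO over normal for each tested gene of 13 pathway lists and the proximal tubule markers, with the SMOC2 label on the left and WT on the right. Filled points passed an edgeR adjusted p under 0.05, open points did not, black bars are list medians, and the cycle enzymes are red at the top, with medians of -1.51 and -1.42. The points far right are Acod1, whose fitted value under the SMOC2 label rests on 0 counts in normal libraries, and Hk2.

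The genes whose profile over the 14 libraries was most like the mean profile of the 9 enzymes were found by the root mean square difference of centred log2 profiles, with 0.5 CPM added. Of the 6 nearest, those given here were Trap1, a mitochondrial chaperone (0.0532), Atp5c1, the gamma subunit of ATP synthase (0.0594), Grsf1, an RNA-binding protein of mitochondria (0.0657), Dlst, the E2 component that works with Ogdh (0.0693), and Immt, a cristae protein (0.0696). Trap1 averaged 162 CPM in SMOC2 UUO and 158 CPM in WT UUO, against 416 CPM in SMOC2 normal and 404 CPM in WT normal libraries. Among the 9 themselves, Idh3b lay nearest to their mean (0.0546) and Cs farthest from it (0.305). The measure runs over groups that differ mostly by UUO.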

How the data were processed

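Total RNA of mouse kidney was made into stranded mRNA libraries per the labels' protocols. The deposited values are raw read counts per Ensembl gene, 1 table per library. Alignment with STAR 2.4.1d and counting with featureCounts 1.4.4 (Subread) on build mm10 are per the submitters' processing notes. For the counting, annotation and strand setting are not given in the sources used. Gene symbols were matched through GENCODE annotation for 47310 of 47729 identifiers, and the other 419 held 0.0288% of counts. No 2 libraries agreed within sampling noise.

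Counts were filtered by expression, scaled by TMM and fitted over all 14 libraries by group with the edgeR 4.0.16 quasi-likelihood test (R 4.3.3), with Benjamini-Hochberg adjustment over 17926 genes and a threshold of 0.05. The code was tested on simulated data. Alternatives were other scalings, no filter and a stricter filter, DESeq2 1.42.0, limma-voom 3.58.1, a replicate block, separate fits of the groups compared, and leaving out each library. Members and gene lists were chosen with earlier results of these data known. Named genes are the 9 enzymes, all other cycle subunits and cytosolic counterparts, up to 4 genes of each other list with the smallest p in WT UUO against WT normal, Smoc2 and the 6 genes of most similar profile, unless said otherwise. Some genes under this rule are not reported here.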

Additional observations from a re-analysis of the deposited data

Results flagged for a closer look

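In 48 sets of 4 libraries, made of the levels of the cycle enzymes, their sum and their ratios in the UUO groups, 2 held a library far from the other 3 by Dixon's test at its 95% critical value, where chance alone marks about 5% of such sets. The log2 ratio of Mdh2 to Mdh1 was -1.58 in WT UUO library 4, the lowest, against -1.06 to -0.95 in the other 3. The log2 ratio of Cs to Mdh2 was -0.71 in SMOC2 UUO library 2, the highest, against -0.89 to -0.88 in the other 3. Neither library stood apart in this way for any single enzyme level, and no interaction of genotype label with UUO was called by edgeR for the 9 enzymes.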

How the results depend on the processing

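The fall of each of the 9 enzymes with UUO kept its direction and its call under 15 alternatives for both labels, and also on library totals alone, an alternative chosen after seeing the data, where Cs was at -0.27 under the SMOC2 label and -0.33 in WT. Genes called in SMOC2 normal against WT normal numbered 5, and 12 without a filter, 174 by DESeq2, 9 by limma-voom, 8 with only the groups compared, 8 on library totals and 5 to 21 on leaving out a library (21 without SMOC2 normal library 1, 11 without WT normal library 2 and 8 without WT normal library 3). In SMOC2 UUO against WT UUO they numbered 149, and 750 by DESeq2, 232 by limma-voom, 39 with only the groups compared and 29 to 158 on leaving out a library (71, 29 and 45 without SMOC2 UUO libraries 1, 2 and 3, and 64, 70 and 63 without WT UUO libraries 1, 3 and 4). For the interaction they numbered 0, and 1 without a filter, 25 by DESeq2 and 0 to 2 on leaving out a library (2 without SMOC2 normal library 1, and 1 without SMOC2 normal library 4, WT normal library 1 or WT UUO library 1, 2 or 4). With the replicate number as a block they were 69 in SMOC2 UUO against WT UUO, 5 in SMOC2 normal against WT normal, 1 for the interaction, 11043 for UUO under the SMOC2 label and 10749 in WT, with 9, 9, 0, 0 and 0 enzymes for UUO under the SMOC2 label, UUO in WT and the other 3 contrasts. Deviations from group means had r from -0.125 to 0.173 over 18 same-numbered pairs of libraries. Over 55 pairs with different numbers r ran from -0.178 to 0.163. With so few libraries per group this cannot show whether the numbers pair samples, which remains unknown. The cause of these shifts was not tested.

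Small genotype differences, none of them called, changed sign. In SMOC2 normal against WT normal Fh1 came to 0.0056 with the block, and on library totals Cs came to -0.015 and Idh3b to -0.010. On library totals Suclg1 came to -0.00101 in SMOC2 UUO against WT UUO, and Mdh2 to 0.0024 in the interaction. On leaving out a library, SMOC2 UUO against WT UUO ranged from -0.094 to 0.042 for Idh3b, -0.073 to 0.056 for Sdha and -0.098 to 0.088 for Suclg1. SMOC2 normal against WT normal ranged from -0.015 to 0.082 for Cs, -0.087 to 0.056 for Fh1, -0.026 to 0.079 for Idh3b, -0.089 to 0.058 for Sdha and -0.010 to 0.13 for Suclg1. The interaction ranged from -0.020 to 0.079 for Cs, -0.027 to 0.087 for Idh3a, -0.13 to 0.0087 for Idh3b, -0.11 to 0.089 for Mdh2, -0.043 to 0.17 for Ogdh, -0.070 to 0.088 for Sdha and -0.17 to 0.020 for Suclg1. Of the ratios, Sdha to Fh1 passed without SMOC2 normal library 3 (-0.19, exact permutation adjusted p = 0.0194), Ogdh to Dlst without SMOC2 normal library 4 or WT UUO library 2, and Sdha to Sdhb without SMOC2 UUO library 3 or WT normal library 1.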

Other observations

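Of 15 glycolysis genes, 13 fell and 1 rose under each label, with median log2 fold changes of -0.81 under the SMOC2 label and -0.69 in WT. The gene that rose was Hk2, the inducible hexokinase, at 14.96 CPM in SMOC2 UUO and 14.5 CPM in WT UUO, against 0.728 CPM in SMOC2 normal and 0.910 CPM in WT normal libraries (edgeR adjusted p = 6.07e-08 under the SMOC2 label and 9.80e-08 in WT). Pgk1 fell by 1.32 under the SMOC2 label and by 1.36 in WT, Pgam1 by 1.35 and 1.52 and Gapdh by 1.03 in each, and all 3 have pseudogene copies that make their counts uncertain. On library totals 9 fell and 3 rose under the SMOC2 label and 7 fell and 1 rose in WT, and Pkm and Ldha changed sign. Of 15 genes of mitochondrial import, channels and chaperones, 15 fell under the SMOC2 label and 13 in WT, with Lonp1 at -1.25 and -1.18 and Vdac1 at -1.28 and -1.30. On library totals 9 fell and 2 rose under the SMOC2 label and 8 fell and 2 rose in WT.

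Among markers of other cells, all 4 T cell markers and all 3 neutrophil markers rose under both labels, and B cell markers rose for 4 of 4 under the SMOC2 label and 2 of 4 in WT. Summed levels of these markers were low. The highest were 18.4 CPM (T cell), 13.1 CPM (neutrophil) and 7.35 CPM (B cell), all in SMOC2 UUO libraries. Among normal libraries the highest were 3.39, 1.51 and 2.45 CPM in the same order, all in WT. Urothelium markers rose for 3 of 4 under each label, but in WT none of the 4 had all UUO libraries above all normal libraries. Their summed level was 23.9 to 96.3 CPM in SMOC2 UUO libraries, against 3.72 to 8.70 CPM in SMOC2 normal libraries. In WT UUO it was 198.6 CPM in library 1 and 14.6 to 38.2 CPM in the other 3, against 3.63 to 21.6 CPM in WT normal libraries. Podocyte markers fell for 3 of 4 under each label. On library totals 3 fell and 1 rose under the SMOC2 label, but 0 fell and 1 rose in WT. Endothelium markers had 1 that rose and 1 that fell of 4 under the SMOC2 label, and 1 that fell in WT. On library totals 3 rose and 1 fell under the SMOC2 label, and 2 rose and 1 fell in WT. Few markers of adjoining tissue passed the filter on low counts, namely 1 of 4 for skeletal muscle, 2 of 4 for adipose tissue and 1 of 3 for adrenal gland. The skeletal muscle marker rose in WT, neither adipose marker passed the test, and the adrenal marker Star fell under both labels but changed sign on library totals under the SMOC2 label. All skeletal muscle markers together reached at most 1.04 CPM, in WT UUO library 1.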
